A study of Oncorhynchus mykiss with 9 samples.

Results

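The 7 enzymes described here make, balance or salvage the deoxynucleotides that DNA synthesis uses up, and their transcripts were measured in rainbow trout (Oncorhynchus mykiss) head kidney. They were chosen by symbol: every gene in the expression table named rrm1, rrm2, rrm2b, tyms, tk1, dut or dctd, in upper or lower case. That gave 12 of 44219 genes, since rrm1, rrm2, tk1, dut and dctd each name 2 entries, called copies here. Whether both entries of a symbol are separate genes was not checked. All 12 reached 10 counts in at least 1 group, as did 28711 genes in all.

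The comparison covers 3 groups of 3 libraries each, all from full-sib fish of about 130 g that had been acclimated for 2 weeks at 12 °C. The severe hypoxia group was held at 3.0 mg/L dissolved oxygen and sampled at 12 h. The moderate hypoxia group was held at 4.5 mg/L and also sampled at 12 h. The normoxia control stayed at 8.5 mg/L, and its libraries are labelled 0 h, so low oxygen and the 12 h elapsed cannot be told apart in either comparison with it. The head kidney of fish is both a blood-forming organ and the site of the interrenal and chromaffin cells, so whole-organ RNA mixes dividing precursors with mature cells.

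Ribonucleotide reductase converts ribonucleotides to deoxynucleotides and is built from a large subunit (rrm1) and a small subunit, either rrm2, which mammalian cells make mainly in S phase, or rrm2b, which they also make outside it. Thymidylate has its own branch: thymidylate synthase (tyms) methylates dUMP with a folate cofactor, and dut and dctd supply dUMP from dUTP and from dCMP. Thymidine kinase 1 (tk1) instead recovers thymidine in the cytosol.

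The deposited table gives 1 FPKM (fragments scaled to transcript length and sequencing depth) and 1 mean estimated count per gene and group, with no value per library. No spread between fish can therefore be given and no difference was tested. Ratios are of counts after TMM scaling (trimmed mean of M), which sets most genes level, and each carries a 95% exact (Clopper-Pearson) interval that covers counting error only. Groups averaged 14700244 counts per library in severe hypoxia, 15301518 in moderate hypoxia and 15246482 in the control. On these totals without scaling, the median gene was 0.69 log2 higher in moderate hypoxia and 0.34 log2 higher in severe hypoxia than in the control.

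Relative to all genes, the enzymes' summed counts stood higher in moderate hypoxia and lower in severe hypoxia than in the control. Relative to the summed counts of S phase genes the first of these turned. The sum was not corrected for transcript length. By symbol with length allowed for, rrm1, rrm2, rrm2b, tyms and tk1 lay above the S phase median in moderate hypoxia. There dctd and dut lay below it, as given further on. Together the enzymes took 0.0289% of all counts in severe hypoxia, 0.0854% in moderate hypoxia and 0.0406% in the control. After scaling, their summed counts were at 0.56 times the control in severe hypoxia (interval 0.550 to 0.576) and at 1.31 times the control in moderate hypoxia (1.28 to 1.33). Severe hypoxia stood at 0.43 times moderate hypoxia (0.423 to 0.440). Leaving out rrm2, the most abundant member, gave 0.53, 1.32 and 0.40 times in the same comparisons. That sum still leans on rrm1, which held 4500 of its 7554 counts in moderate hypoxia. By symbol, 5 of 7 were above the control in moderate hypoxia, and dut and dctd were below it. In severe hypoxia 6 of 7 were below the control. The median of all symbols was 0.002 log2 in moderate and -0.02 in severe hypoxia, so about as many symbols lay above the control as below. In moderate hypoxia, 57.2% of all symbols lay below tk1, 66.1% below rrm2, 67.4% below tyms, 79.6% below rrm1 and 88.3% below rrm2b. In bulk tissue, fewer dividing cells and less RNA per cell cannot be told apart.

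**Figure D1:**
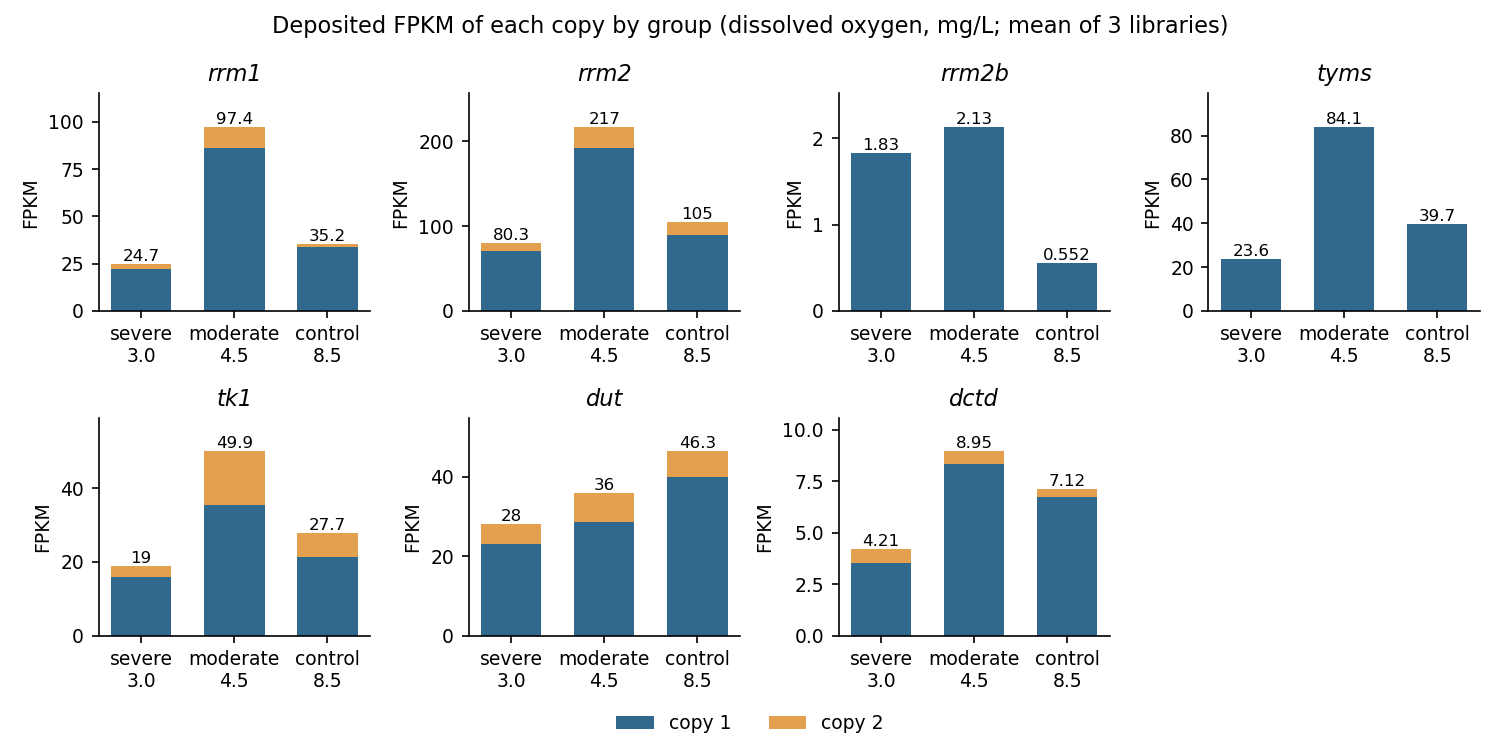
Deposited FPKM of each symbol (vertical axis, FPKM, each panel with its own scale from 0) in severe hypoxia, moderate hypoxia and the control, with the pair of copies stacked. Moderate hypoxia is the tallest bar for every symbol but dut, which is tallest in the control at 46.3 FPKM.

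The large subunit, rrm1, had 24.7 FPKM in severe hypoxia, 97.4 FPKM in moderate hypoxia and 35.2 FPKM in the control. Its summed counts were 1093, 4500 and 1622 in the same groups. Moderate hypoxia was thus the high group and severe hypoxia the low one. Scaled counts were 1.81-fold lower in severe hypoxia than in the control (interval 1.73 to 1.89), 1.71-fold higher in moderate hypoxia than in the control (1.66 to 1.77), and 3.10-fold lower in severe than in moderate hypoxia (2.99 to 3.22).

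The copies of rrm1 did not move alike. The major copy had 974 counts in severe hypoxia, 3968 in moderate hypoxia and 1543 in the control, and the minor copy 119, 532 and 79. Against the control, the minor copy was 4.16-fold higher in moderate hypoxia (3.63 to 4.79) and 1.24-fold higher in severe hypoxia (1.05 to 1.46). The major copy was 1.59-fold higher in moderate hypoxia and 1.93-fold lower in severe hypoxia. The minor copy held 10.9% of rrm1 counts in severe hypoxia (interval 9.84 to 12.0), 11.8% in moderate hypoxia (11.3 to 12.4) and 4.87% in the control (4.28 to 5.51). How the counting divided reads between copies of a gene is not given in the sources used here, so the sum per symbol is the safer value.

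The S phase small subunit, rrm2, was the most abundant of the 7 in every group, at 80.3 FPKM in severe hypoxia, 217 FPKM in moderate hypoxia and 105 FPKM in the control. Its scaled counts were 1.65-fold lower in severe hypoxia than in the control (1.59 to 1.71) and 1.28-fold higher in moderate hypoxia than in the control (1.25 to 1.32). Severe hypoxia was 2.11-fold below moderate hypoxia (2.05 to 2.18). Both rrm2 copies were lower in severe hypoxia than in either other group. The ratio of rrm2 to rrm1 FPKM was 3.26 in severe hypoxia, 2.23 in moderate hypoxia and 2.97 in the control.

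The alternative small subunit, rrm2b, went another way. It had 1.83 FPKM in severe hypoxia, 2.13 FPKM in moderate hypoxia and 0.552 FPKM in the control, from mean counts of 47.3, 57 and 14.7. Both hypoxia groups stood above the control, by 2.65-fold in severe hypoxia (1.87 to 3.80) and 2.40-fold in moderate hypoxia (1.72 to 3.43). The 2 hypoxia groups were within counting error of each other, at a ratio of 1.10 for severe over moderate (0.876 to 1.38), and that sign turned on library totals, on FPKM and after the length trend was removed. It made up 2.23% of small subunit FPKM in severe hypoxia, 0.974% in moderate hypoxia and 0.525% in the control. It was the least abundant of the 7 in every group, and these are the lowest counts among the symbols.

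**Figure D2:**
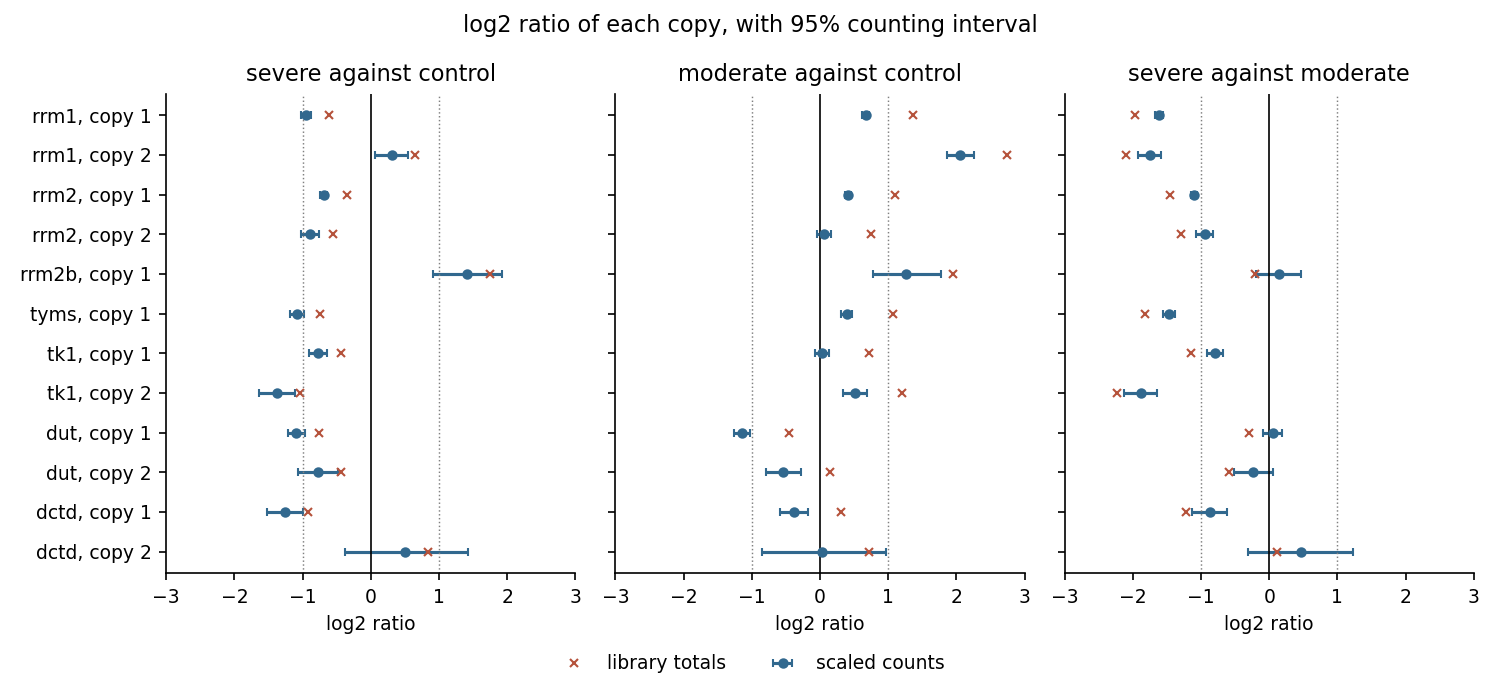
log2 ratio of each of the 12 copies (horizontal axis) in 3 comparisons; points are scaled counts with 95% counting intervals, crosses are the same ratio on library totals, and dotted lines mark 2-fold. In severe against moderate hypoxia 9 of the 12 points lie below 0, where the median of all genes is 0.009.

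Thymidylate synthase, tyms, is a single gene in the table and had 23.6 FPKM in severe hypoxia, 84.1 FPKM in moderate hypoxia and 39.7 FPKM in the control. It was 2.12-fold lower in severe hypoxia than in the control (1.97 to 2.28), 1.31-fold higher in moderate hypoxia than in the control (1.24 to 1.38) and 2.77-fold lower in severe than in moderate hypoxia (2.60 to 2.96). Its order over the groups was the same as that of rrm1 and rrm2.

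Of the enzymes that supply dUMP, dut was ordered differently from tyms. dUTPase, dut, had 28.0 FPKM in severe hypoxia, 36.0 FPKM in moderate hypoxia and 46.3 FPKM in the control, so the control was highest. After scaling it was 2.06-fold lower than the control in severe hypoxia (1.91 to 2.23) and also 2.06-fold lower in moderate hypoxia (1.91 to 2.21), with the hypoxia groups at a ratio of 0.998 (0.918 to 1.09). Neither the 2-fold difference in moderate hypoxia nor the equal level of the hypoxia groups held under other settings. In moderate hypoxia against the control, dut was at -0.35 log2 on library totals and at -0.02 with the length trend removed, and severe against moderate hypoxia was at -0.35 and -0.67 under the same settings. In severe hypoxia against the control it was at -0.71 and -0.62. The major copy, DUT, was 2.14-fold lower than the control in severe and 2.21-fold lower in moderate hypoxia. The minor copy was 1.71-fold and 1.45-fold lower in the same comparisons, and on library totals it was higher in moderate hypoxia, by 0.15 log2.

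dCMP deaminase, dctd, had 4.21 FPKM in severe hypoxia, 8.95 FPKM in moderate hypoxia and 7.12 FPKM in the control. It was 2.14-fold lower in severe hypoxia than in the control (1.80 to 2.55) and 1.67-fold lower in severe than in moderate hypoxia (1.42 to 1.97). Moderate hypoxia was 1.28-fold below the control (1.12 to 1.47) on scaled counts but above it on library totals, on FPKM and after the length trend was removed. Its minor copy held 10.3 counts in severe hypoxia, 9.95 in moderate hypoxia and 6.01 in the control, too few to separate the groups.

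Thymidine kinase 1, tk1, had 19.0 FPKM in severe hypoxia, 49.9 FPKM in moderate hypoxia and 27.7 FPKM in the control. Summed counts were 1.85-fold lower in severe hypoxia than in the control (1.71 to 2.01), 1.11-fold higher in moderate hypoxia than in the control (1.05 to 1.19) and 2.07-fold lower in severe than in moderate hypoxia (1.92 to 2.22). The copy written TK1 spread further than the other. TK1 had 56.6 counts in severe hypoxia, 277 in moderate hypoxia and 120 in the control, and tk1 had 281, 648 and 393. Severe against moderate hypoxia was 3.69-fold lower for TK1 (3.12 to 4.38) and 1.74-fold lower for tk1 (1.60 to 1.89). These intervals do not meet, but they cover counting error only, not spread between fish or the division of reads between copies. TK1 held 16.8% of the pair's counts in severe hypoxia, 30.0% in moderate hypoxia and 23.4% in the control.

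By FPKM the order in the control was rrm2, dut, tyms, rrm1, tk1, dctd and rrm2b. In moderate hypoxia rrm1 and tyms came after rrm2, followed by tk1 and dut. In severe hypoxia dut was again next to rrm2, followed by rrm1 at 24.7 FPKM and tyms at 23.6 FPKM. With 1 value per group, no spread between fish is at hand to say which neighbours differ.

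Counted against all genes, severe hypoxia was where the enzymes were most often low. Among the 12 copies, 4 (tyms, TK1, DUT and the major dctd copy) were at least 2-fold lower in severe hypoxia than in the control, where 4.4% of all genes were, and 1 (rrm2b) was at least 2-fold higher, where 13.7% were. By symbol these were 3 of 7 lower (tyms, dut and dctd) against 2.55% of 13888 symbols, and 1 of 7 higher against 9.5%. The median of the 7 symbols was -0.89 log2, and that of all symbols -0.02. On library totals, where the median gene was itself 0.34 log2 higher, 1 of the 12 copies was at least 2-fold lower in severe hypoxia. No share of all genes on those totals is at hand to set beside that count.

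In moderate hypoxia against the control, 2 of 12 copies were at least 2-fold higher (the minor rrm1 copy and rrm2b), where 20% of all genes were, and 1 (DUT) at least 2-fold lower, where 14.1% were. By symbol 1 of 7 was higher, against 15.8%, and 1 of 7 lower, against 11.1%. These shares are near those of all genes. The median of the 7 was 0.36 log2. On library totals, where the median gene was itself 0.69 log2 higher, 6 of 12 copies were at least 2-fold higher and none lower. The share of all genes past 2-fold on those totals is not given here, so that count cannot be set against it.

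In severe against moderate hypoxia, 5 of 12 copies were at least 2-fold lower, where 10.5% of all genes were, and 0 at least 2-fold higher, where 9.03% were. By symbol 4 of 7 were lower (rrm1, rrm2, tyms and tk1) against 8.37%, and 0 of 7 higher against 6.79%. The median of the 7 was -1.05 log2, and that of all symbols -0.01. On library totals, where the median gene was itself at -0.34 log2, 8 of 12 copies were at least 2-fold lower, with no share of all genes at hand. Of all 7 symbols, 4 lay above the control in moderate hypoxia and below it in severe hypoxia, an order that 14.1% of all 13888 symbols had. They are the 4 just named, and being lower in severe than in moderate hypoxia itself favours that order.

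**Figure D3:**
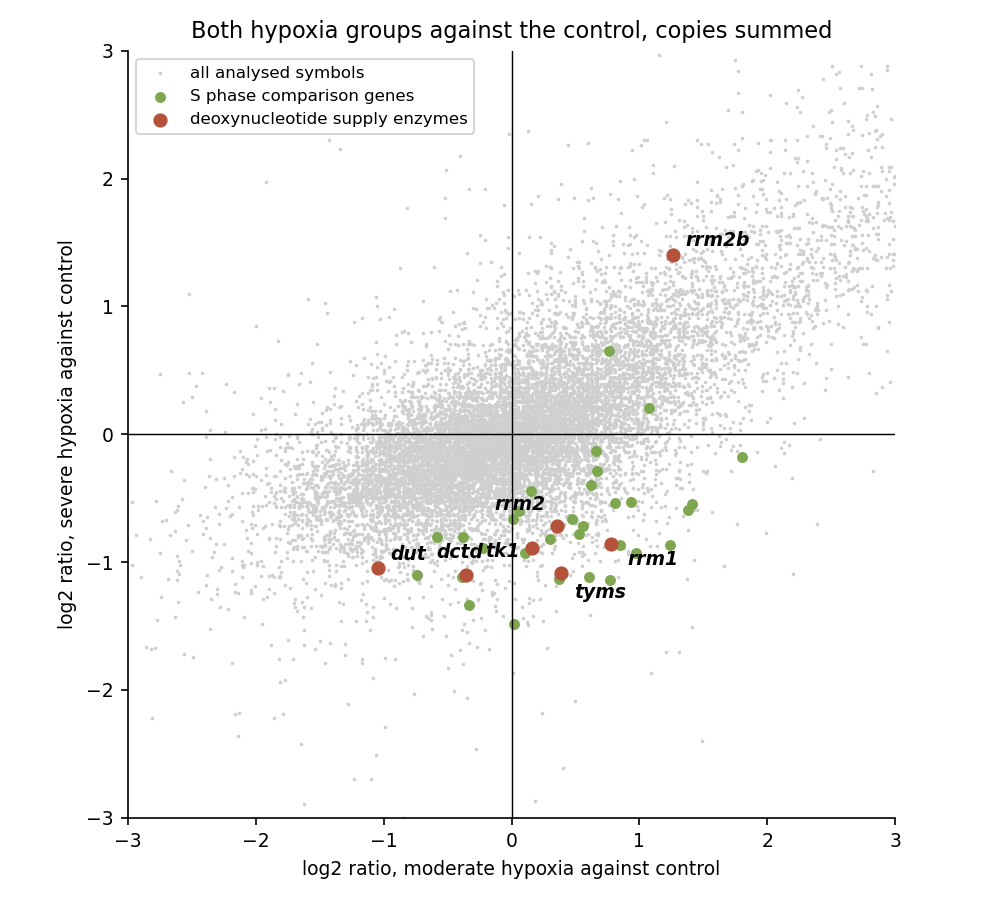
log2 ratio to the control in moderate hypoxia (horizontal axis) and in severe hypoxia (vertical axis) for all analysed symbols within 3 log2 of 0, with copies summed; both axes share the same control group. Of the 7 enzymes, 4 lie in the lower right with most S phase comparison genes, rrm2b lies upper right, and dut and dctd lie lower left.

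The replication genes of the same libraries give a yardstick. The list held 31 S phase genes, among them the MCM helicase subunits, pcna (the sliding clamp) and top2a (a topoisomerase of dividing cells). Its median was -0.78 log2 in severe hypoxia and 0.56 log2 in moderate hypoxia, each against the control, and -1.12 log2 in severe against moderate hypoxia. All 31 were below 0 in that last comparison and 19 were at least 2-fold lower, where 8.37% of all symbols were. In severe hypoxia against the control 7 of the 31 were at least 2-fold lower, where 2.55% of all symbols were. In moderate hypoxia 5 were at least 2-fold higher, near the 15.8% of all symbols that were.

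Named by size, pola1 (the catalytic subunit of polymerase alpha) was 1.80 log2 higher in moderate hypoxia than in the control, mcm3 1.41 and top2a 1.38. In severe hypoxia fen1 (the flap endonuclease) was at -1.34 log2 against the control, with mcm4 at -1.14 and lig1 (DNA ligase 1) at -1.13. mcm5 was at -2.10 in severe against moderate hypoxia. The clamp gene pcna was at -0.78 in severe hypoxia and 0.53 in moderate hypoxia.

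The enzymes were also set against the summed counts of those 31 genes, a comparison chosen after the data were seen. Most of the enzymes then shrank towards 0 in severe hypoxia against the control, while in moderate hypoxia tk1, dctd and dut moved further from 0. In severe hypoxia against the control, rrm1 was then at -0.12 log2, rrm2 at 0.02, tk1 at -0.15, dut at -0.31, tyms at -0.34 and dctd at -0.36. By contrast, rrm2b was at 2.14, above all 31 genes. In moderate hypoxia, rrm1 was at 0.09 but rrm2 at -0.33, tyms at -0.29, tk1 at -0.53, dctd at -1.04 and dut at -1.73, with rrm2b at 0.58, so rrm2, tyms and tk1, which lay above the control on scaled counts, turned sign. dut was below all 31 S phase genes in moderate hypoxia. In severe against moderate hypoxia, rrm1 was at -0.21 and tyms at -0.05, while rrm2 at 0.34, tk1 at 0.38, dctd at 0.68 and dut at 1.42 turned sign (dut from a value near 0). dut and rrm2b, at 1.56, were above all 31 genes in that comparison. The enzymes' higher level in moderate hypoxia and lower level in severe hypoxia are therefore stated relative to all genes, not to replication genes. That comparison used summed counts and did not allow for transcript length. Beside the list median of 0.56 in moderate hypoxia, rrm2 at 0.36, tyms at 0.39 and tk1 at 0.16 still lay below. There dctd and dut also lay below, and rrm1 and rrm2b above. Beside the median of -1.125 in severe against moderate hypoxia, rrm2 at -1.08 and tk1 at -1.05 still lay above, with rrm1 and tyms below. With the length trend removed, the S phase median was 0.56 log2 in moderate hypoxia against the control. On the same setting rrm1 was at 0.69, rrm2 at 0.62, tyms at 1.07, tk1 at 0.82, dctd at 0.33 and dut at -0.02. In severe against moderate hypoxia the S phase median was then -1.18, with rrm2 at -1.24, tk1 at -1.39, dctd at -1.16 and dut at -0.67.

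Transcript length moved with the ratios. Shorter genes were lower in moderate hypoxia: in the length bin of dut, whose count and FPKM imply 796 bases, the median symbol stood at -1.02 log2 against the control. After subtraction of its bin's median, dut was at -0.02 log2, tyms at 1.07, tk1 at 0.82, rrm1 at 0.69 and rrm2 at 0.62. In severe hypoxia the trend was shallower, and the same subtraction left dut at -0.62, dctd at -0.86, tyms at -0.84, rrm1 at -0.90, rrm2 at -0.60 and tk1 at -0.58. The part of RNA quality or library preparation in this trend was not tested.

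**Figure D4:**
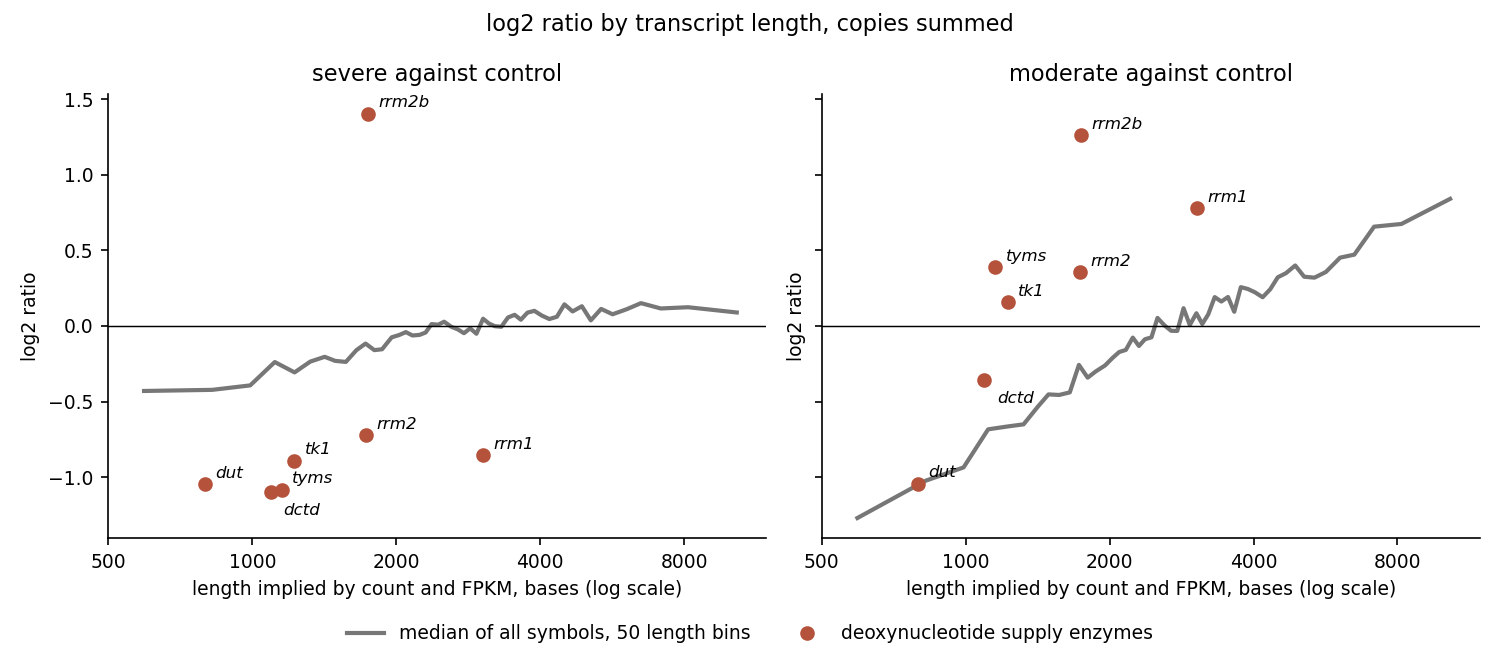
log2 ratio to the control (vertical axis) by transcript length implied by count and FPKM (horizontal axis, bases, log scale) in severe and in moderate hypoxia; the line is the median of all symbols in 50 length bins. In moderate hypoxia dut lies on the line and the other symbols above it; in severe hypoxia every symbol but rrm2b lies below it.

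Genes that switch on S phase and the reductase were next examined as a list of 17 symbols. Its median was -0.30 log2 in severe hypoxia (0.04 on library totals) and 0.58 log2 in moderate hypoxia against the control. All 17 were below 0 in severe against moderate hypoxia, and 7 were at least 2-fold lower, against 8.37% of all symbols. In moderate hypoxia 6 were at least 2-fold higher than the control, against 15.8% of all symbols. These were led by e2f3 (an activating E2F factor) at 2.81 log2, mybl2 (a partner of the late cell cycle program) at 1.76 and rbl1 (a pocket protein that binds E2F) at 1.52. In severe hypoxia none of the 17 reached 2-fold in either direction, where 9.5% of all symbols were higher and 2.55% lower. The cyclin ccnf, which in mammals marks rrm2 for breakdown, was at -0.58 in severe hypoxia and 0.33 in moderate hypoxia.

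The kinases that phosphorylate nucleosides and nucleotides were mostly lower than the control in both hypoxia groups, at a median of -0.59 log2 in severe hypoxia and -0.94 in moderate hypoxia over 10 symbols. With the length trend removed both medians were -0.38. The exceptions were dguok (mitochondrial deoxyguanosine kinase), at 0.15 log2 in severe hypoxia against the control, and the mitochondrial thymidine kinase tk2 in both groups. tk2 was at 5.25 FPKM in severe hypoxia, 14.7 FPKM in moderate hypoxia and 1.72 FPKM in the control, which is 2.38-fold and 5.20-fold above the control after scaling. Thymidylate kinase, dtymk, which follows tyms and tk1 in the pathway, was at -1.15 log2 in severe hypoxia. In moderate hypoxia ak1 was at -1.50 and nme2 at -1.48; these interconvert nucleoside mono-, di- and triphosphates.

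Over 4 genes of pyrimidine synthesis the median was -0.31 log2 in severe (0.03 on library totals) and 0.35 in moderate hypoxia, with cad, the enzyme of the first steps, at 1.40 in moderate hypoxia. Over 11 genes of purine synthesis the median was -0.24 in severe (0.10 on library totals) and 0.42 in moderate hypoxia, with ppat, the committed step, at 1.40 in moderate hypoxia. In severe against moderate hypoxia cad was at -1.17, ppat at -1.08 and impdh2 at -1.04.

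The 11 folate cycle genes had a median of 0.11 log2 in severe and 0.02 in moderate hypoxia. In moderate hypoxia mtr (methionine synthase) was at 2.30 and shmt1 at 1.66 against the control. In severe hypoxia mtrr, which reactivates methionine synthase, was at 1.21 and mtr at 1.13. Against moderate hypoxia, severe hypoxia had mthfd1l at -1.66, mtr at -1.18 and mtrr at 1.48.

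Of 10 genes that break down nucleosides and deoxynucleotides, the median was 0.15 log2 in severe and -0.04 in moderate hypoxia (0.65 on library totals). Cytidine deaminase, cda, was at -1.66 in severe hypoxia against the control and at -1.38 against moderate hypoxia. The dNTP hydrolase samhd1 was at -0.56 in severe and -0.96 in moderate hypoxia. Over the 176 other genes of the nucleotide metabolism class in the table's annotation, the median was -0.07 in severe and -0.16 in moderate hypoxia.

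**Figure D5:**
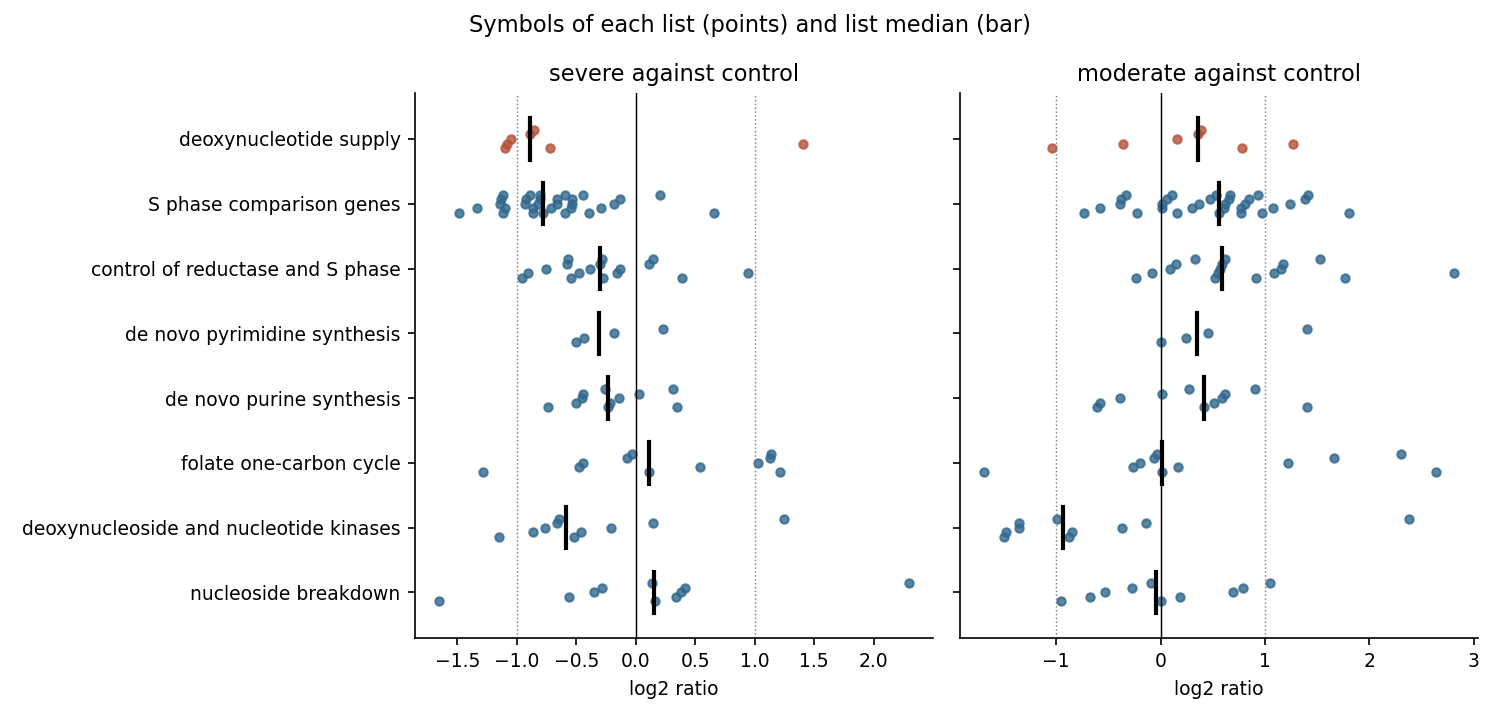
log2 ratio to the control of each symbol (points; horizontal axis) for the 7 enzymes and 7 lists, in severe and in moderate hypoxia, with copies summed; the bar is the list median and dotted lines mark 2-fold. The enzymes' median is the lowest of all rows in severe hypoxia, at -0.89, with S phase genes next at -0.78, and lies at 0.36 in moderate hypoxia. With the length trend removed (not drawn), the S phase median in severe hypoxia is the lower of these, at -0.65 against -0.62.

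By distance over the 3 centred group values, the symbols most like the median profile of the 6 enzymes with at least 100 counts were ncapg, spag5, brat1, mybl1 and shcbp1-b, the last as far as its 8-character field shows. Of 10534 symbols compared, 18 lay within a distance of 0.1. The nearest, ncapg, was at -0.89 log2 in severe and 0.21 in moderate hypoxia against the control. Among the 6 enzymes themselves only tk1 lay that near the median profile, at 0.043. The others lay further off: rrm2 at 0.127, tyms at 0.286, dctd at 0.399, rrm1 at 0.466 and dut at 0.952. With 3 points per profile this likeness is a description only.

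Cell markers moved between the groups as well. Of 9 erythroid markers 7 could be compared. At least 2-fold lower than the control were 3 in severe and 6 in moderate hypoxia, against 2.55% and 11.1% of all symbols. All 7 markers were lower than the control in both hypoxia groups. Their summed share of counts was 2.00% in severe hypoxia, 1.19% in moderate hypoxia and 3.31% in the control; gata1 was at 0 in severe hypoxia and the control, and klf1 was not found by its symbol. hbb, a globin, was at -1.02 log2 in severe and -2.11 in moderate hypoxia. The neutrophil markers found, 2 of 5 (mmp9 and mmp13), were 0.0817% of counts in severe hypoxia, 0.393% in moderate hypoxia and 0.0711% in the control. Markers of muscle summed to 2454 counts in severe hypoxia, 575 in moderate hypoxia and 3440 in the control, and those of liver and exocrine pancreas to 401, 21.7 and 356. The interrenal markers star, cyp11a1 and cyp17a1 together were 0.0348% of counts in severe hypoxia, 0.0151% in moderate hypoxia and 0.0180% in the control. After scaling, their sum was 1.55 log2 higher in severe than in moderate hypoxia. Most of that sum was star, with 4536 of 5113 counts in severe hypoxia, 1875 of 2317 in moderate hypoxia and 2405 of 2738 in the control. Markers of B cells were 0.0909%, 0.0983% and 0.0550% of counts in severe hypoxia, moderate hypoxia and the control. Most of these counts were cd22, summed over 43 genes of that symbol: 8073 of 13361, 9825 of 15041 and 5690 of 8391 in the same groups. The marker pax5 was at 0 in severe hypoxia and the control. After scaling, the B cell sum was 0.38 log2 above the control in severe and 0.15 in moderate hypoxia. The macrophage markers found, 2 of 4 (mrc1 and marco), were 0.111%, 0.137% and 0.0567% of counts in the same groups. In moderate hypoxia against the control these 2 went opposite ways, mrc1 at 1.10 log2 and marco at -0.49. In severe hypoxia they were at 0.86 and 0.29. The part of these cell types in the enzymes' values was not tested.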

How the data were processed

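The 9 RNA-seq libraries of head kidney fall into 3 groups of 3 by the treatment in the labels. The submitters' processing notes list HISAT2 and Bowtie2 2.2.8 without their roles; for the counter, genome build and annotation the sources used here say nothing. Per the file headers, the authors deposited 1 FPKM and 1 count per gene and group. From the values, the deposited counts are means of 3 libraries: between 69.6% and 73.9% of non-zero counts were whole after multiplication by 3 (tolerance 0.002). Each line has 16 fixed fields, each 8 characters wide, which cuts long names and IDs. Of its lines, 1985 could not be read as a gene with its values and were left out. No sequence is shown, since no genome or sequence table was used here.

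The count test planned for values per library was not run. Instead, group counts were put on a common scale by TMM (30% of M and 5% of A trimmed, genes with at least 10 counts in a group), dividing moderate hypoxia by 1.62 and severe hypoxia by 1.22. The log2 ratio of scaled counts carries an exact 95% interval from counts summed over 3 libraries. Counting error is all it covers. No ratio is given where both groups held at most 3 summed counts. Copies were summed by symbol. One symbol of the selection and some pathway genes are not reported here. Pathway genes were named by rule: up to 3 per list, direction and comparison, by size, at least 2-fold, where the higher group had 50 counts or more; further genes are named for their role after their values were seen. The scaling was tested on simulated data. Members and lists were chosen with earlier results of these data known. Python 3.11.15, numpy 2.4.6, pandas 2.3.3, scipy 1.17.1 and matplotlib 3.10.9 were used. The alternatives tried were scaling by library totals, by median-of-ratios factors or by totals without globin and mitochondrial genes, other count minimums, FPKM with pseudocounts of 1 and 0.1, removal of the length trend, a 1.5-fold threshold, each copy alone and, added after the data were seen, scaling to S phase genes.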

Additional observations from a re-analysis of the deposited data

How the results depend on the processing

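No paired analysis was possible because the deposited table has 1 value per group; leaving out single libraries was not run for the same reason. In severe hypoxia against the control, all 56 symbol values (7 symbols under 8 planned settings) kept their sign. In moderate hypoxia against the control 51 of 56 did, with dctd the exception, and in severe against moderate hypoxia 51 of 56, with rrm2b the exception. The cause was not tested.

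The median log2 ratio of the 7 symbols in moderate hypoxia against the control, 0.36, became 1.05 on library totals, 0.85 on totals without globin and mitochondrial genes, 1.01 and 1.05 on FPKM with pseudocounts of 1 and 0.1, 0.69 with the length trend removed and 0.22 over copies taken alone. In severe hypoxia against the control, -0.89 became -0.55, -0.66, -0.52, -0.54 and -0.62 under the first 5 of these. In severe against moderate hypoxia, -1.05 became -1.40, -1.32, -1.35, -1.39 and -1.24, and -0.91 over copies taken alone.

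Of the 12 copies, 2 were at least 2-fold higher in moderate hypoxia than in the control; this became 6, 4, 6, 6 and 4 under those 5 settings, and the 1 lower became 0 in each. In severe hypoxia, the 4 lower became 1, 2, 0, 1 and 2, or 9 at a 1.5-fold threshold, and the 1 higher became 0 on FPKM with a pseudocount of 1. In severe against moderate hypoxia the 5 lower became 8 under each of those 5 settings and at a 1.5-fold threshold. Median-of-ratios factors and other count minimums moved none of these counts. The share of all genes past the threshold under each setting is not given here, so these counts show only how the calls moved.

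Scaling to S phase genes, added after the data were seen, asks about the enzymes relative to replication genes. The medians were then -0.33 in moderate and -0.15 in severe hypoxia against the control, and 0.38, reversed, in severe against moderate hypoxia. Copies at least 2-fold higher and lower numbered 1 and 3, 3 and 0, and 4 and 0 in the same comparisons, again with no share of all genes at hand. Severe against moderate hypoxia reversed for rrm2 (0.34, its major copy 0.32) and tk1 (0.38), and also changed sign for dctd (0.68) and dut (1.42). This setting used the summed S phase counts and did not allow for transcript length. Beside the S phase median (-1.125) in that comparison, rrm2 (-1.08) and tk1 (-1.05) lay slightly above. With the length trend removed, rrm2 (-1.24) and tk1 (-1.39) lay below that median (-1.18).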
